A study of Mus musculus with 12 samples.

Results

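Mitotic mouse B lymphoma cells whose RPL12 carried aspartate at serine 38 (S38D) were compared with mitotic cells of the same line carrying wild-type RPL12 (WT), using all genes that passed a low-count filter. The comparison rests on 4 of the 12 libraries of the study, 2 from S38D mitotic cells and 2 from WT mitotic cells. Of 10477 genes tested, 478 (4.56%) passed an adjusted p of 0.05 and are referred to as called; 121 (1.15%) were higher and 357 (3.41%) were lower in S38D mitotic cells. Of the 36 gene lists examined, those with the most lower genes were targets of the stress transcription factor ATF4 and genes of cholesterol synthesis, while the linker histone gene H1f0 showed the largest named increase.

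The cells were 19DN, derived from the murine B lymphoma line 19PP by removal of its GFP and human CD2 reporters. 19PP arose from bone marrow carrying Cγ1-Cre, a Myc transgene and an active p110 subunit of PI3K, placed in mice without Rag2 and the common gamma chain, so the S38D and WT cells share these alleles. The study also contains S38A cells, with alanine at the same position, and asynchronous cultures of the 3 lines, each group with 2 libraries. S38D mitotic and WT mitotic cells had both received 100 ng/mL nocodazole, which depolymerises microtubules and halts cells in mitosis, during 8 h, followed by washing and 10 min in fresh medium, and were harvested in cycloheximide at 100 µg/mL. The sources used here do not say how the change at residue 38 was introduced or how many clones each line stands for, so an effect of the residue and other differences between the lines cannot be told apart.

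RPL12, also called uL11, is a protein of the large ribosomal subunit at the base of the ribosomal stalk, where translation factors bind, and its serine 38 is phosphorylated in cells; aspartate is commonly used to mimic a phosphorylated residue. ATF4 is a transcription factor whose protein is made when phosphorylation of the initiation factor eIF2 lowers general translation, and it switches on genes for amino acid uptake and synthesis, tRNA charging and stress signalling, together called the integrated stress response. SREBP2 is a transcription factor that leaves the endoplasmic reticulum when sterols run low and switches on the enzymes of cholesterol synthesis.

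The 4 libraries held between 4428618 and 5501227 reads assigned to genes, and spike-in RNA amounted to between 3.20% and 3.60% of gene reads. Levels are given as CPM, read counts scaled to library size with TMM factors; 3 reads correspond to between 0.544 and 0.658 CPM. The share of genes whose replicates lay outside 95% counting error was 17.3% in S38D mitotic cells and 32.0% in WT mitotic cells, and the 2 WT mitotic libraries lay far from each other on the main axis of differences within groups (-13.2 and 13.2, against 0.188 and -0.188 for S38D mitotic). Of 12 markers of B cell identity, 8 were at 10 CPM or more in all 4 libraries, with summed levels of 4115 to 4199 CPM in S38D and 3863 to 4064 CPM in WT; no marker list of T and NK, myeloid, erythroid or stromal and epithelial cells summed to more than 4.16 CPM in any of them. At 0 reads in all 4 libraries were 8 of 11 T and NK cell, 5 of 9 myeloid, 3 of 6 erythroid and 4 of 7 stromal and epithelial markers. Nothing in the labels says that replicates came from separate cultures, so p-values measure the spread between these samples only, which may be technical.

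Rpl12 itself (chromosome 2, 32961559 to 32965345, GRCm38) had 48.0 and 62.1 CPM in S38D mitotic cells, against 73.5 and 74.4 CPM in WT mitotic cells. The libraries did not overlap, but the difference of -0.42 on the log2 scale (SE 0.157) missed the threshold (edgeR quasi-likelihood test, Benjamini-Hochberg adjusted p = 0.153). Counts per gene hold no read sequence, so this level does not check the labels.

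Among the 478 called genes, 191 differed at least 2-fold, 158 of them lower and 33 higher in S38D mitotic cells. The 4 libraries separated by group for each of the 478, which they also did for 51.9% of all genes tested. The median log2 fold change over all genes was -0.00 with TMM factors, and spike-in scaling moved it by -0.05, leaving 39 genes higher and 290 lower. The plot of all genes shows the 2 lists that stand out among the lower genes. The counts depend on single libraries: without S38D mitotic replicate 1 the test called 36 genes higher and 146 lower, without S38D mitotic replicate 2 it called 34 and 153, and without WT mitotic replicate 1 it called 41 and 162. Without WT mitotic replicate 2, 79 genes were called higher and 243 lower. Leaving out an asynchronous S38D library, which belongs to neither group compared, gave 468 and 604 without replicate 1 and 452 and 635 without replicate 2.

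**Figure D1:**
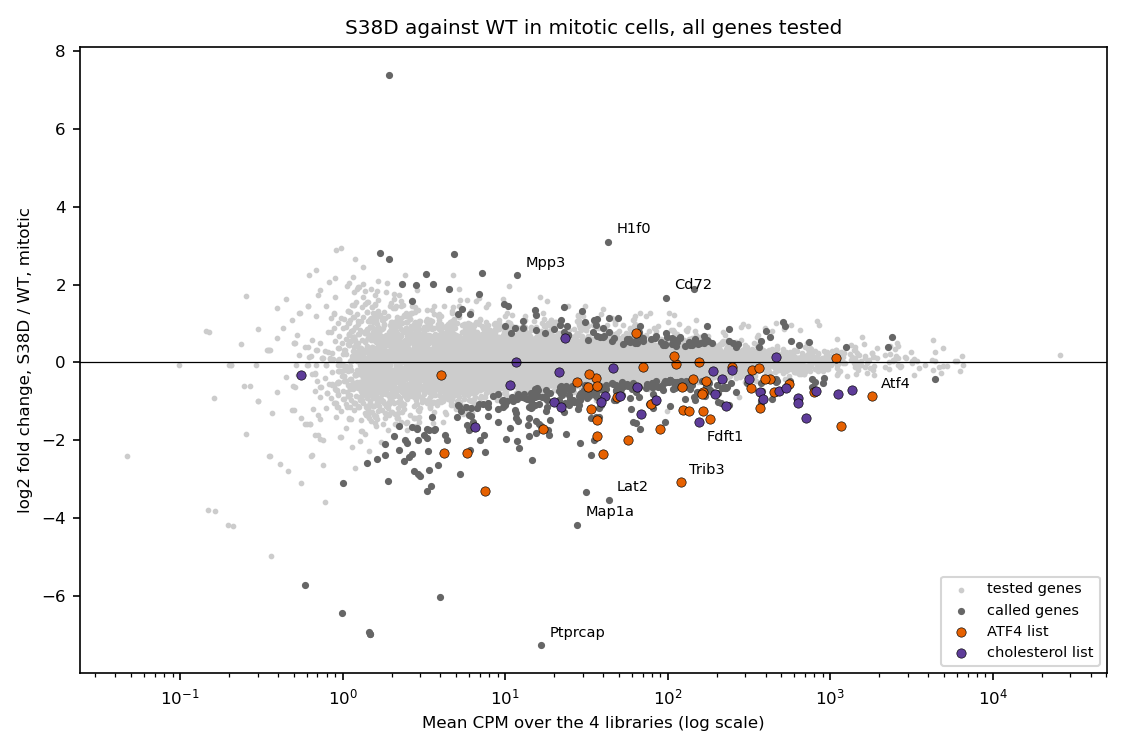
Log2 fold change (S38D over WT, mitotic cells, vertical axis) of each of the 10477 genes tested against its mean CPM over the 4 libraries (log scale). Called genes are dark grey, members of the ATF4 list orange and members of the cholesterol list purple; both lists lie mostly below 0, with medians of -0.76 each.

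Atf4 and many genes listed as ATF4 targets were lower in S38D mitotic cells. The gene lists were chosen with earlier results of these data known, so the shares below describe the lists. Of 46 measured members of an ATF4 and integrated stress response list, 27 (58.7%) fell and 0 rose, against 3.41% lower and 1.15% higher over all genes tested. The list's median log2 fold change was -0.76, against -0.00 over all genes, and 42 of the 46 members had a negative value. DESeq2 called 28 members lower and limma-voom 26, each with 0 higher, and 35 members were lower and 0 higher at an unadjusted p under 0.05. With each of the 4 libraries left out in turn, 22 to 25 members were called lower.

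Transcription factors and stress regulators of the response changed together with its enzymes. Atf4 had 1436 and 1136 CPM in S38D mitotic cells, against 2487 and 2219 CPM in WT mitotic cells, (log2 fold change -0.87, SE 0.124, adjusted p = 0.00038). Its relative Atf5, a stress factor that is itself induced through ATF4, had 622 and 512 CPM in S38D against 1853 and 1701 CPM in WT and fell by 1.65 (SE 0.123, adjusted p = 6.2e-07). In both genes each S38D library lay below each WT library. Ddit3, which encodes the stress factor CHOP, had 106 and 90.6 CPM in S38D against 250 and 216 CPM in WT (log2 fold change -1.25, SE 0.131, adjusted p = 2.2e-05). Trib3 (chromosome 2, 152337422 to 152344032, minus strand), a pseudokinase induced by ATF4 and CHOP that feeds back on ATF4, had 26.6 and 24.5 CPM in S38D against 229 and 202 CPM in WT. That difference of -3.08 (SE 0.141, adjusted p = 2.8e-09) was 8.45-fold, and the groups were far apart relative to the spread within each.

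Jdp2, a bZIP protein that represses AP-1, had 22.9 and 22.6 CPM in S38D mitotic cells against 100.3 and 82.9 CPM in WT mitotic cells (log2 fold change -2.01, SE 0.147, adjusted p = 5.7e-07). Ddit4, an inhibitor of the growth kinase complex mTORC1, had 101 and 94.6 CPM in S38D against 269 and 263 CPM in WT (-1.45, SE 0.105, adjusted p = 5.7e-07). Sesn2, another brake on mTORC1, had 19.4 and 12.0 CPM in S38D against 60.8 and 55.3 CPM in WT (-1.90, SE 0.209). Eif4ebp1, whose protein blocks cap-dependent initiation when it is not phosphorylated, had 73.5 and 75.2 CPM in S38D against 184 and 161 CPM in WT (-1.22, SE 0.126). Nupr1, a small stress-induced chromatin protein, was low, with 11 and 3 reads in S38D against 72 and 62 reads in WT. Herpud1, which acts in the removal of misfolded proteins from the endoplasmic reticulum, averaged 228 CPM in S38D and 513 CPM in WT (-1.17). All S38D libraries lay below all WT libraries for these genes.

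Amino acid metabolism made up much of the rest of the list. Asns, which makes asparagine, had 53.1 and 48.4 CPM in S38D mitotic cells against 114 and 98.5 CPM in WT mitotic cells (log2 fold change -1.06, SE 0.147, adjusted p = 0.00028). Pck2, the mitochondrial phosphoenolpyruvate carboxykinase, had 43.1 and 40.8 CPM in S38D against 147 and 126 CPM in WT (-1.71, SE 0.131, adjusted p = 7.2e-07). Chac1, an enzyme that degrades glutathione, had 2.06 and 1.81 CPM in S38D against 9.63 and 9.87 CPM in WT (-2.32, SE 0.281). In these 3 genes no S38D library reached the lower WT library. Pycr1, of proline synthesis, fell by 1.72 (SE 0.253), and Mthfd2, of the mitochondrial folate pathway, fell by 0.76 (SE 0.115). The glycine transporter gene Slc6a9 fell by 1.47 (SE 0.161). Cth, which makes cysteine from cystathionine, had 16.3 and 9.78 CPM in S38D against 57.2 and 75.7 CPM in WT (-2.36, SE 0.4, adjusted p = 0.0177). The call of Cth was lost without any 1 of the 4 libraries, with adjusted p between 0.0544 and 0.125, and under spike-in scaling (0.0657).

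Of 20 cytosolic aminoacyl-tRNA synthetases, which load amino acids onto tRNAs, 7 (35.0%) fell and 0 rose, with a median of -0.26; 6 of the 20 are also in the ATF4 list. With 1 of the 4 libraries left out, 4 to 6 were called lower. Cars (cysteine) had 51.7 and 60.3 CPM in S38D mitotic cells against 133 and 94.8 CPM in WT mitotic cells (log2 fold change -1.02, SE 0.161). Yars (tyrosine) had 124 and 131 CPM in S38D against 223 and 208 CPM in WT (-0.75, SE 0.117). The S38D libraries of both genes lay below the WT libraries. Nars, Gars, Aars, Sars and Lars also fell, by 0.56 to 0.89. Kars, Rars, Hars and Dars had values of 0.06 to 0.19, with adjusted p of 0.369 to 0.855. In the list of serine, glycine and one-carbon metabolism 6 of 21 members (28.6%) fell and 0 rose; 5 of these 6 are the ATF4 list members Cth, Slc6a9, Slc1a4, Mthfd2 and Psat1, and the other is Mthfd1l (-1.02, SE 0.157).

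The members of the ATF4 list that did not pass the test included amino acid transporters and part of the feedback system. Slc7a5, a carrier of large neutral amino acids, averaged 1125 CPM in S38D mitotic cells and 1033 CPM in WT mitotic cells (log2 fold change 0.12, adjusted p = 0.57). Slc38a2 (0.17) and Slc1a5 (0.01) were also near 0. Ppp1r15a, the eIF2 phosphatase subunit GADD34, had the only other positive value (0.75, SE 0.513, adjusted p = 0.505). The plot of the ATF4 list gives every member with its error.

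**Figure D2:**
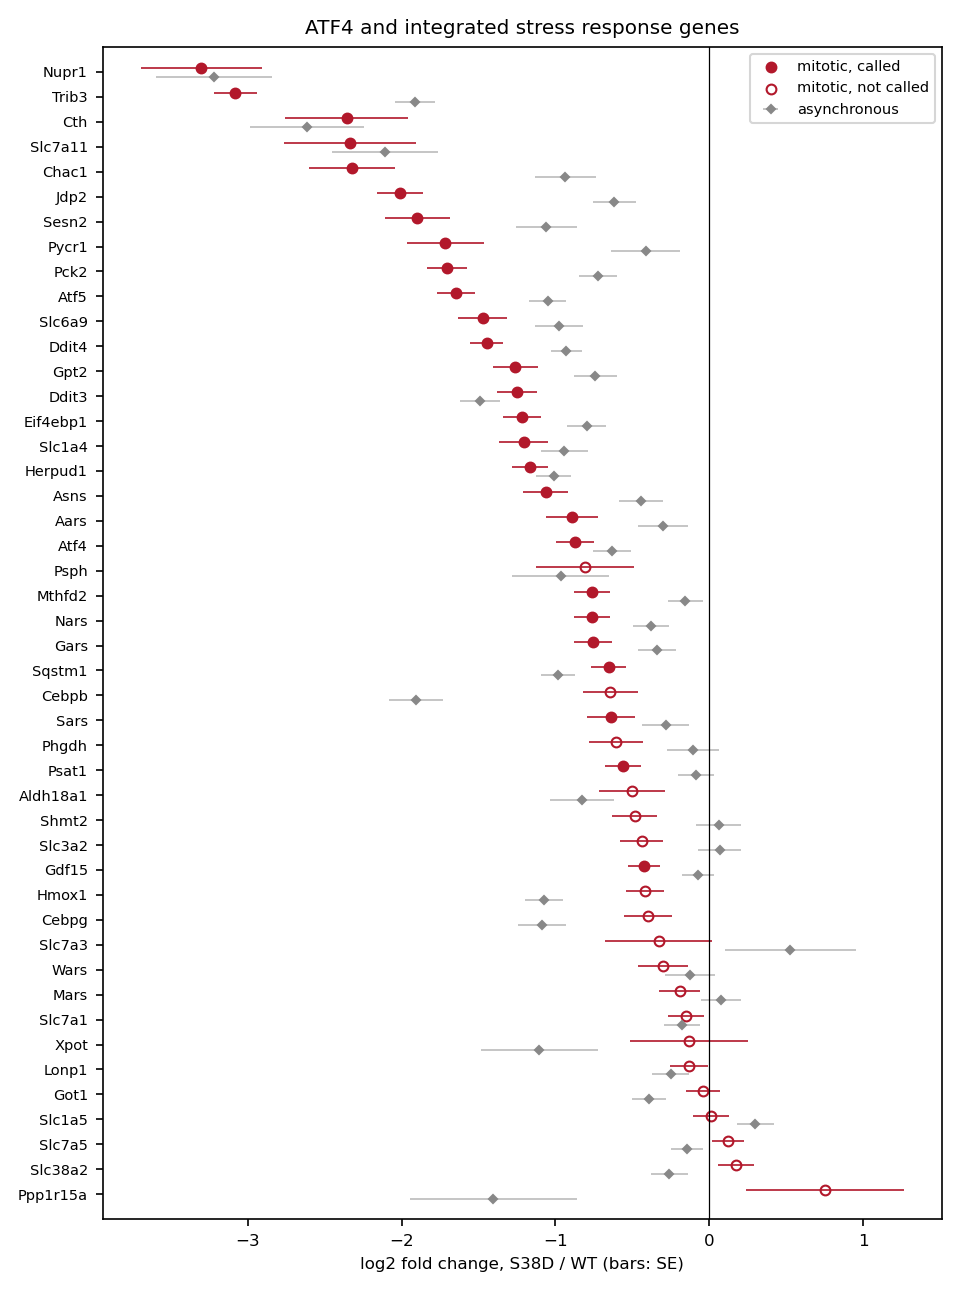
Log2 fold change (S38D over WT) of the 46 measured ATF4 and integrated stress response genes in mitotic cells (red circles, filled where called) and in asynchronous cells (grey diamonds), with bars for the SE. In mitotic cells 27 genes were called lower and 0 higher.

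Promoter sequences were set beside these values because ATF4 binds, together with C/EBP proteins, a known composite element, searched here as TGATGNAA on both strands from 250 bases before to 50 after the gene start. Of the 27 called ATF4 list members 24 had a promoter in the RefSeq table (GRCm38.p6), and 12 of these (50.0%) held the letters, against 1 of 13 members (7.69%) that were not called and 2.61% of the 8112 tested genes with a promoter. Over all called lower genes the share was 8.71% (25 of 287). Some of these genes are known as ATF4 targets through this very element, so the share is a description of the list. Stretches before the start of 5 called members are shown 5′ to 3′ on the gene's strand, with the matched letters in capitals, as the letters themselves or as their reverse complement. They lie at chr2:119351029-119351096 (Chac1, plus strand), chr6:7693210-7693252 (Asns, minus), chr7:126625533-126625600 (Nupr1, minus), chr12:85599363-85599415 (Jdp2, plus) and chr14:55540143-55540210 (Pck2, plus).
Chac1: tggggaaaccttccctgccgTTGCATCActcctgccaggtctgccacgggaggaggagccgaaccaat
Asns: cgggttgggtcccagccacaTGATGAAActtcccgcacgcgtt
Nupr1: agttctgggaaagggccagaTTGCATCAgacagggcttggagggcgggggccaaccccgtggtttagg
Jdp2: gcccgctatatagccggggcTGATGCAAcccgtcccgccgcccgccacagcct
Pck2: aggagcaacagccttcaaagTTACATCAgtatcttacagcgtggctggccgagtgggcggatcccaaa
The other 7 called members with a match were Aars, Gars, Herpud1, Pycr1, Slc1a4, Slc7a11 and Trib3. A match of letters does not show binding.

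Cholesterol synthesis was the second group of lower genes. Of 33 measured genes of sterol and fatty acid synthesis and SREBP2 regulation, 22 (66.7%) fell and 0 rose in S38D mitotic cells, with a median of -0.76. The list shares 0 genes with the ATF4 list. DESeq2 called 19 members lower and limma-voom 21, each with 0 higher, and 24 were lower at an unadjusted p under 0.05. With each of the 4 libraries left out in turn, 16 to 20 were called lower.

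Called members lay along the pathway. Acat2, which joins the first pair of acetyl units, had 149 and 136 CPM in S38D mitotic cells against 338 and 286 CPM in WT mitotic cells (log2 fold change -1.14, SE 0.168, adjusted p = 0.00101). Hmgcs1, the HMG-CoA synthase, had 425 and 404 CPM in S38D against 906 and 796 CPM in WT (-1.04, SE 0.105, adjusted p = 1.5e-05). Mevalonate kinase, encoded by Mvk, had 38.1 and 40.6 CPM in S38D against 97.9 and 98.7 CPM in WT (-1.32, SE 0.14, adjusted p = 2.5e-05). No S38D library of these 3 genes reached the WT range. Fdft1 (chromosome 14, 63145150 to 63179578), the squalene synthase that commits the pathway to sterols, had 76.6 and 82.1 CPM in S38D against 236 and 225 CPM in WT (-1.54, SE 0.146, adjusted p = 8.5e-06). Nsdhl, which acts in removing methyl groups from the sterol ring, had 55.8 and 58.9 CPM in S38D against 116 and 109 CPM in WT (-0.97, SE 0.11). The last steps showed the same direction. Dhcr7, which acts at the end of the pathway, had 38.7 and 33.3 CPM in S38D against 63.5 and 68.5 CPM in WT (-0.87, SE 0.146, adjusted p = 0.00159), and its call missed the threshold without S38D mitotic replicate 2 (adjusted p = 0.052). Pmvk, Mvd, Fdps, Lss, Cyp51, Msmo1, Hsd17b7 and Tm7sf2 fell by 0.74 to 1.65.

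Genes of fatty acid synthesis under SREBP control were lower too in S38D mitotic cells. The fatty acid synthase gene Fasn fell by 0.91 on the log2 scale (SE 0.147), the desaturase genes Scd1 and Scd2 by 0.67 and 0.72, and the carboxylase gene Acaca by 1.03 (SE 0.238). Srebf2, the gene of SREBP2 itself, had 483 and 478 CPM in S38D mitotic cells against 325 and 556 CPM in WT mitotic cells, so that the S38D values lay between the WT values (0.13, SE 0.346, adjusted p = 0.882). Without WT mitotic replicate 1 the value for Srebf2 was -0.23 (adjusted p = 0.881). Insig1, which holds SREBP2 in the endoplasmic reticulum, had -0.58 (SE 0.239, adjusted p = 0.199), Abca1 and Abcg1, the exporters of cholesterol, had 0.01 and -0.14 (adjusted p = 0.985 and 0.794), and the plot of the cholesterol list gives further members.

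**Figure D3:**
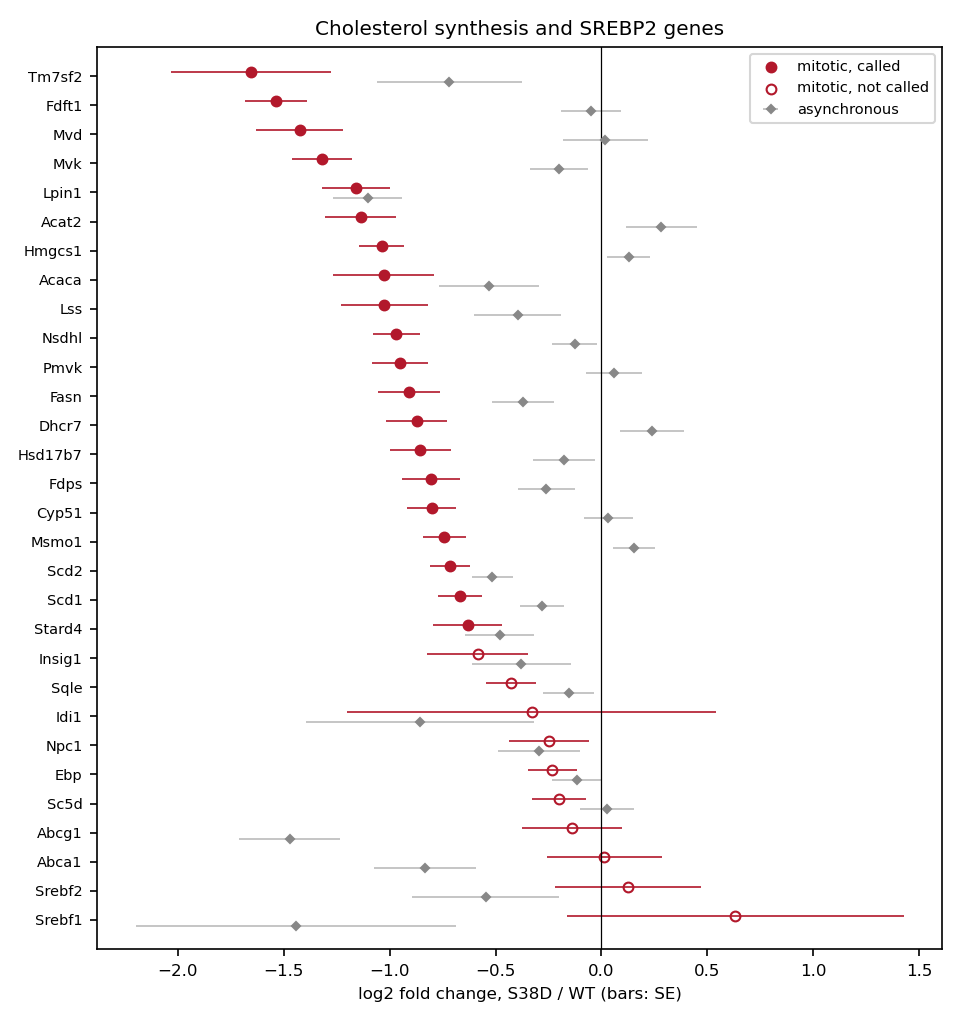
Log2 fold change (S38D over WT) of genes of the cholesterol and SREBP2 list in mitotic cells (red circles, filled where called) and in asynchronous cells (grey diamonds), with bars for the SE. Of the 33 measured members, 3 of which are not drawn, 22 were called lower in mitotic cells and 5 in asynchronous cells.

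The promoter of Hmgcs1 was the 1 promoter among 15 available for called members of this list (6.67%) that held TCACNCCAC, a form of the sterol regulatory element bound by SREBP proteins, on either strand; among tested genes 1.36% held it. The stretch at chr13:119690194-119690262 (GRCm38.p6, plus strand, RefSeq) is shown with the match in capitals.
Hmgcs1: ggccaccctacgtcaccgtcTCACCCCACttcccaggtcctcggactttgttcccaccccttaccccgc
The CCAAT box, a general promoter element that NF-Y binds, was present on either strand in 12 of these 15 promoters (80.0%), in 6 of 7 (85.7%) of members not called, and in 43.4% of tested genes. TGATGNAA was found in 0 of the 15.

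Signalling genes of lymphocytes held several of the largest decreases. Ptprcap (chromosome 19, 4153604 to 4156751), which encodes a protein associated with the CD45 phosphatase, had 0 and 0.362 CPM in S38D mitotic cells against 34.4 and 32.0 CPM in WT mitotic cells. In reads this was 2 in both S38D libraries together against 328 in WT, a log2 ratio of -7.43 with a 95% counting interval of -10.48 to -5.57. Lat2, an adaptor for signals from immune receptors, had 7.00 and 6.70 CPM in S38D against 76.7 and 82.7 CPM in WT (log2 fold change -3.54, SE 0.189, adjusted p = 1.4e-08). The Src family kinase gene Fyn had 7.00 and 6.52 CPM in S38D against 22.7 and 25.5 CPM in WT (-1.83, SE 0.211). Sh2d1b1, the adaptor EAT-2, had 3.91 and 5.44 CPM in S38D against 18.9 and 19.3 CPM in WT (-2.02, SE 0.249). The groups were apart for each of these genes. In the list of B cell receptor signalling 5 of 37 members (13.5%) fell and 2 (5.41%) rose, with a median of -0.04. Over all genes tested 3.41% were lower and 1.15% higher.

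Surface proteins and regulators of B cells also included increases. Of 47 B cell identity genes, 9 (19.1%) rose and 3 (6.38%) fell, with a median of 0.19, against 1.15% and 3.41% over all genes. With 1 of the 4 libraries left out, 4 to 7 were called higher and 2 to 3 lower. Cd72, an inhibitory co-receptor, had 154 and 144 CPM in S38D mitotic cells against 45.2 and 48.9 CPM in WT mitotic cells (log2 fold change 1.66, SE 0.135, adjusted p = 1.2e-06). The tetraspanin gene Cd53 had 62.4 and 57.3 CPM in S38D against 23.05 and 30.9 CPM in WT (1.15, SE 0.176). Tnfrsf13c, the receptor for the survival factor BAFF, had 128 and 118 CPM in S38D against 71.4 and 74.8 CPM in WT (0.74, SE 0.127). Each S38D library of these 3 genes lay above each WT library. Ly6d, a surface marker of early B lineage cells, rose by 0.64 (SE 0.109), Ms4a1, which encodes CD20, by 0.55 (SE 0.11) and the complement receptor gene Cr2 by 0.69 (SE 0.148). These 3 calls were not stable to single libraries: Ms4a1 had adjusted p of up to 0.0785 and Cr2 of up to 0.12 with 1 mitotic library left out, and Ly6d had 0.0596 without S38D mitotic replicate 2. Vpreb3, a B lineage gene of receptor assembly, had 7.62 and 4.53 CPM in S38D against 14.4 and 12.5 CPM in WT (-1.16, adjusted p = 0.00571; 0.126 without S38D mitotic replicate 2). Pax5, the master regulator of B cell identity, had 111 and 97.5 CPM in S38D against 58.8 and 97.9 CPM in WT, which overlapped (0.41, SE 0.425, adjusted p = 0.663).

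Other large decreases came from genes of diverse roles, shown by library in the plot of the largest changes. Map1a, a protein that binds microtubules, had 3.50 and 2.36 CPM in S38D mitotic cells against 58.0 and 47.4 CPM in WT mitotic cells (log2 fold change -4.17, SE 0.282, adjusted p = 2.6e-07). Clec4d, a C-type lectin receptor, had 3.91 and 7.25 CPM in S38D against 50.8 and 63.9 CPM in WT (-3.34, SE 0.272). Crip1, a small LIM-domain protein, had 4.53 and 4.17 CPM in S38D against 26.1 and 23.9 CPM in WT (-2.52, SE 0.197). In each the WT libraries were several times the S38D libraries. Afp, which encodes alpha-fetoprotein, had 12.8 and 9.06 CPM in S38D against 55.9 and 57.7 CPM in WT (-2.38, SE 0.244), and Fetub, a liver-secreted cystatin relative, had 15.4 and 12.7 CPM in S38D against 56.5 and 56.0 CPM in WT (-2.00, SE 0.164). Angptl6, an angiopoietin-like secreted protein, fell by 2.08 (SE 0.157), Paox, a polyamine oxidase, by 2.20 (SE 0.266) and Mocos, which sulfurates the molybdenum cofactor, by 1.96 (SE 0.268). Of the 14 largest decreases at 10 CPM or more, 3 were members of the ATF4 list (Trib3, Cth and Jdp2).

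**Figure D4:**
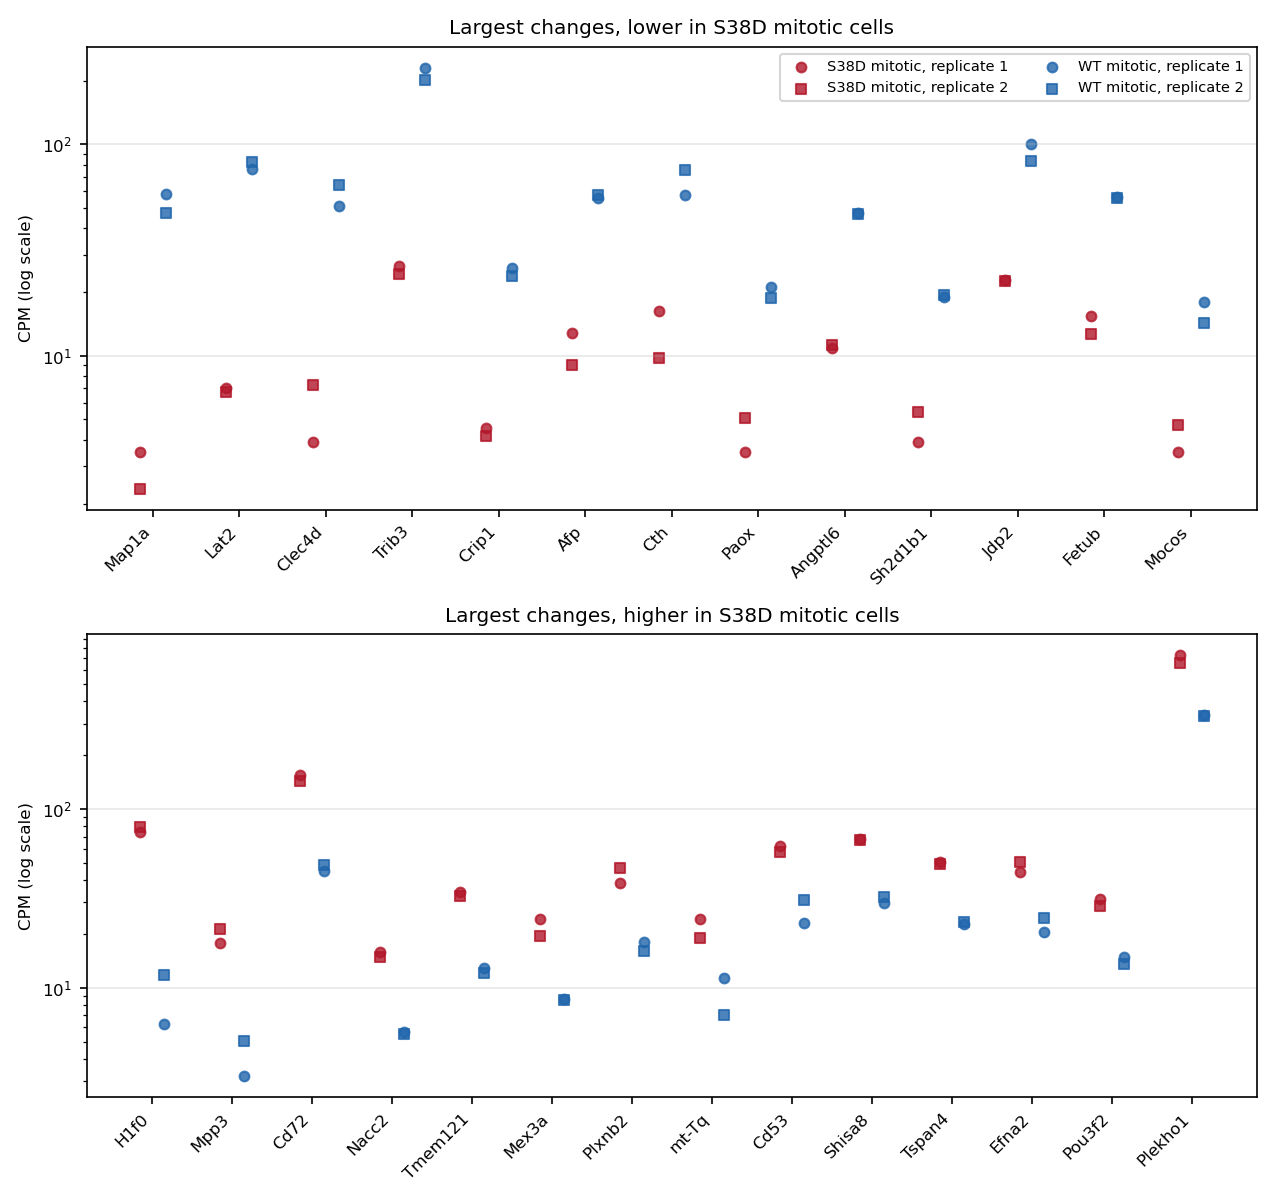
CPM (log scale) in each library for the genes with the largest decreases (top) and increases (bottom) among called genes averaging at least 10 CPM, with S38D mitotic in red and WT mitotic in blue. Ptprcap, with 0 reads in 1 S38D library, is not drawn. Separated libraries were a condition for choosing these genes, so the S38D and WT points of each gene drawn do not overlap.

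H1f0 (chromosome 15, 79028450 to 79030504), the linker histone H1.0 that accumulates in cells that slow or stop dividing, had 74.6 and 79.7 CPM in S38D mitotic cells against 6.23 and 11.8 CPM in WT mitotic cells. That was 8.61-fold higher (log2 fold change 3.11, SE 0.287, adjusted p = 2.9e-05). Another linker histone gene, Hist1h1c, had 505 and 518 CPM in S38D against 280.4 and 301 CPM in WT (0.81, SE 0.105, adjusted p = 0.000166). Both genes had all S38D libraries above all WT libraries. Of 25 replication-dependent histone genes measured, 3 (12%) rose (Hist1h1c, Hist1h4i and Hist3h2a) and 0 fell, with a list median of 0.21. Of 10 histone variants 2 (20%) rose (H1f0 and H2afx) and 0 fell, with a median of 0.12. DESeq2 called 2 of the variants higher and limma-voom 1. Over all genes tested 1.15% were higher and 3.41% lower.

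Among the other increases, Mpp3, a scaffold protein at cell contacts, had 17.7 and 21.2 CPM in S38D mitotic cells against 3.21 and 5.05 CPM in WT mitotic cells (log2 fold change 2.25, SE 0.296, adjusted p = 0.000186). Nacc2, a transcriptional repressor, had 15.9 and 14.9 CPM in S38D against 5.67 and 5.49 CPM in WT (1.46, SE 0.203). Plxnb2, a receptor for semaphorins, had 38.3 and 46.6 CPM in S38D against 17.9 and 16.0 CPM in WT (1.32, SE 0.159). All 3 had S38D libraries above WT libraries. Plekho1, a PH-domain protein that interacts with casein kinase 2, had 724 and 659 CPM in S38D against 337 and 332 CPM in WT (1.05, SE 0.102, adjusted p = 1.2e-05). Tmem121 (1.42), Shisa8 (1.13), and the ephrin gene Efna2 (1.08) rose as well, as did the tetraspanin gene Tspan4, with 50.7 and 49.5 CPM in S38D against 22.9 and 23.3 CPM in WT (2.17-fold). The RNA-binding protein gene Mex3a (1.34), the POU factor gene Pou3f2 (1.08), Efna2 and the mitochondrial tRNA gene mt-Tq (1.22) lost their calls without 1 of the mitotic libraries, with adjusted p of up to 0.131 for Mex3a, 0.0561 for Pou3f2, 0.0537 for Efna2 and 0.203 for mt-Tq.

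Of 78 G2/M genes 2 (2.56%) fell and 0 rose, and of 73 G1/S and replication genes 2 rose and 2 fell (2.74% each), with medians of 0.09 and 0.11; over all genes 3.41% were lower and 1.15% higher. With any 1 of the 4 libraries left out, 0 of the G1/S genes and 0 to 1 of the G2/M genes were called. Cdc25b, a phosphatase of mitotic entry, had 708 and 763 CPM in S38D mitotic cells against 1052 and 1077 CPM in WT mitotic cells (log2 fold change -0.53, SE 0.121, adjusted p = 0.0164; up to 0.217 with 1 mitotic library left out). Pimreg, a regulator of the metaphase to anaphase transition, had 71.5 and 72.7 CPM in S38D against 119 and 103 CPM in WT (-0.62, SE 0.123, adjusted p = 0.00622; up to 0.1 with 1 mitotic library left out). Both genes had the groups apart.

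Of 13 tubulin genes, 2 (15.4%) fell and 1 (7.69%) rose, with a median of -0.17. Over all genes tested 3.41% were lower and 1.15% higher. Tubb2a had 5.97 and 9.78 CPM in S38D mitotic cells against 29.7 and 28.5 CPM in WT mitotic cells (log2 fold change -1.87, SE 0.203, adjusted p = 3.0e-05), and Tuba1a had 112 and 111 CPM in S38D against 201 and 186 CPM in WT (-0.80, SE 0.107). For both the groups were apart, whereas Tubb5, the main beta-tubulin gene of proliferating cells, averaged 483 CPM in S38D and 486 CPM in WT (-0.01, adjusted p = 0.98). Tubb3 had 17.9 and 21.6 CPM in S38D against 11.5 and 10.8 CPM in WT (0.83, adjusted p = 0.0274), a call that DESeq2 (0.103) and limma-voom (0.093) did not make and that was lost without any 1 of the 4 libraries (0.0677 to 0.258), under spike-in scaling (0.0646) and with only the groups compared (0.056). Tubulin genes resemble each other in sequence, and how far their 3′ reads can be told apart was not tested. The sources used here do not say how reads matching several of them were assigned, so values of single members are uncertain.

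Immediate early genes, which respond to stimuli within minutes, held 2 increases (4.35%) and 1 decrease (2.17%) among 46 members. Over all genes tested 1.15% were higher and 3.41% lower. Fos, a subunit of AP-1, had 47.2 and 56.5 CPM in S38D mitotic cells against 24.4 and 32.5 CPM in WT mitotic cells (log2 fold change 0.87, SE 0.209, adjusted p = 0.0234), with DESeq2 at 0.105 and up to 0.273 with 1 mitotic library left out. Atf3, a stress factor that is also an ATF4 target, had 4.94 and 7.43 CPM in S38D against 18.7 and 16.7 CPM in WT (-1.50, SE 0.261, adjusted p = 0.00218; 0.0679 without S38D mitotic replicate 1). The groups did not overlap for either gene. Egr1, a zinc finger factor of the same list, had 627 and 607 CPM in S38D against 265 and 348 CPM in WT, a difference of 1.01 that missed the threshold (SE 0.242, adjusted p = 0.0578).

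Lists of the translation machinery were read against the background of 1.15% higher and 3.41% lower. Among the 79 genes of cytosolic ribosomal proteins there was 1 increase and 0 decreases, with a median of -0.03. Of 16 genes of the P-stalk and the GTPase centre of the large subunit, to which Rpl12 belongs, 1 rose (6.25%) and 0 fell (median -0.07), and of 61 translation factors 0 rose and 3 fell (4.92%; median 0.05). Ribosome biogenesis held 3 increases (3.30%) and 0 decreases among 91 genes (median 0.19); 70 of the 91 values were positive, and 20 genes were higher and 0 lower at an unadjusted p under 0.05. With any 1 of the 4 libraries left out, the ribosomal protein, P-stalk and ribosome biogenesis lists each had 0 calls, and 1 to 3 translation factors were called lower. The proteasome list (48 genes), the heat shock list (32 genes) and the CLK kinase and detained intron list (32 genes) each had 0 calls in edgeR, DESeq2 and limma-voom, with 5, 1 and 3 genes under an unadjusted p of 0.05. The unfolded protein response of the endoplasmic reticulum, a branch of stress signalling partly separate from ATF4, had 1 of 32 members lower and 0 higher, with a median of 0.25. The plot of lists sets these counts beside the background.

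**Figure D5:**
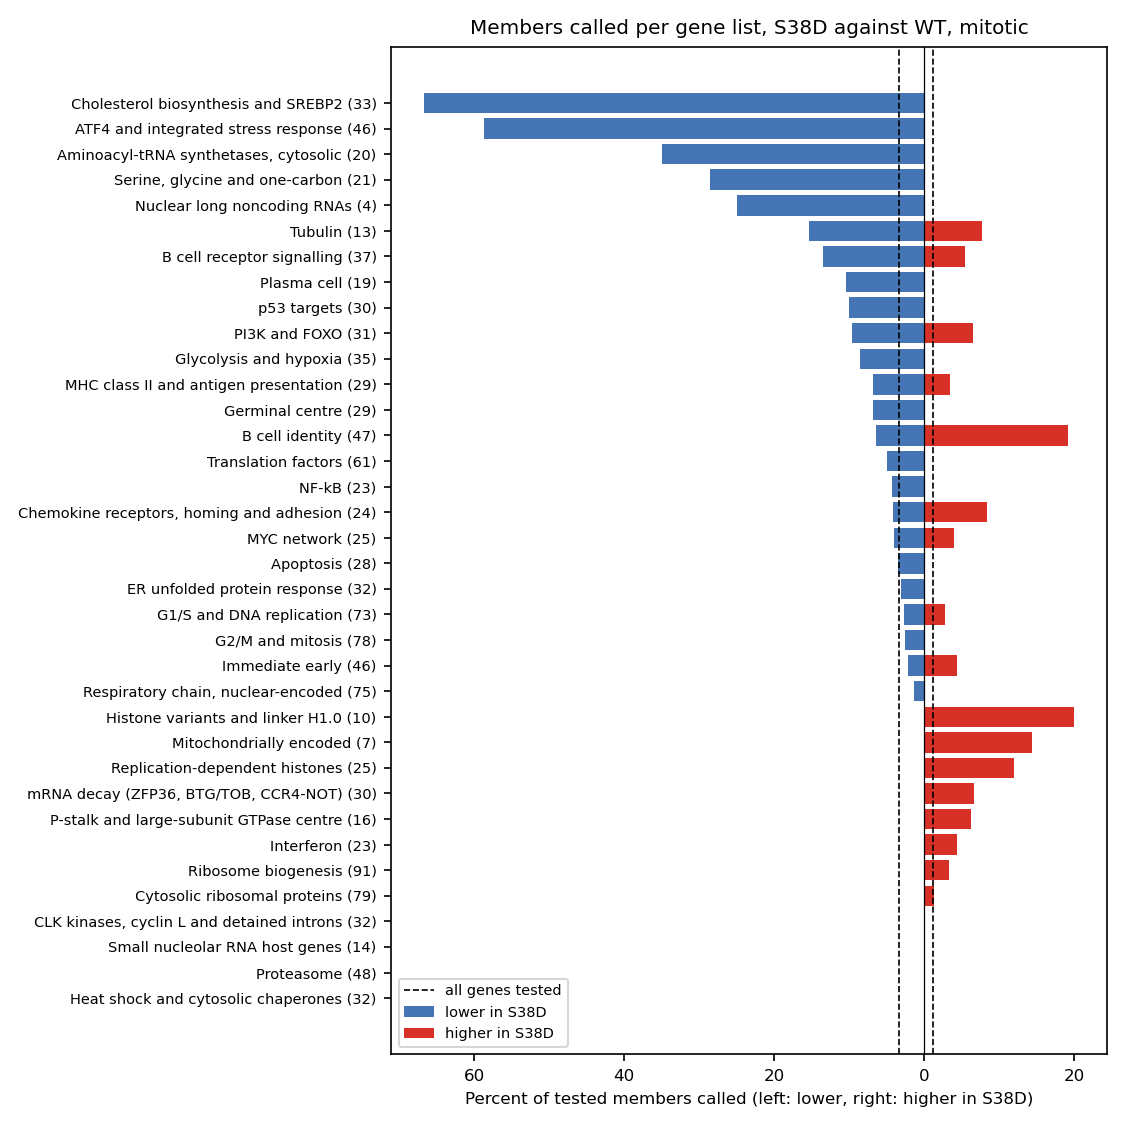
Percent of the tested members of each of the 36 gene lists that were called lower (blue, left) or higher (red, right) in S38D mitotic cells against WT mitotic cells, with the number of tested members in brackets. Dashed lines mark all genes tested, at 3.41% lower and 1.15% higher; the cholesterol list reaches 66.7% and the ATF4 list 58.7% lower.

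Separate libraries of asynchronous S38D and WT cells allowed the same lines to be compared in asynchronous culture. There 510 genes (4.87%) were called higher and 432 (4.12%) lower in S38D, 8.99% in either direction. Replicates lay outside 95% counting error for 48.7% of genes in S38D asynchronous and 15.2% in WT asynchronous cells. The 2 S38D asynchronous libraries lay at -21.2 and 21.2 on the main axis of differences within groups. The comparison, and the interaction below, rest on these libraries. Of the 357 genes lower in S38D mitotic cells, 150 (42.0% of them, and 34.7% of the asynchronous calls) were also called lower in asynchronous cells, and 2 were called higher. Of the 121 genes higher in S38D mitotic cells, 55 (45.5%, and 10.8% of the asynchronous calls) were also called higher, and 2 were called lower. The median log2 fold change of the 357 genes was -0.92 in mitotic and -0.44 in asynchronous cells, and that of the 121 genes was 0.66 and 0.44. Members were chosen on the mitotic values, so their medians in mitotic cells are larger by that choice. The asynchronous counts moved with the processing, to 58 higher and 1307 lower under spike-in scaling and to 21 and 62 when only the groups compared were fitted. Without WT asynchronous replicate 1 they were 88 and 147, and without S38D asynchronous replicate 2 they were 1825 and 1387.

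Genes with large differences in both states included Ptprcap (log2 fold change -7.27 in mitotic and -5.44 in asynchronous cells), Map1a (-4.17 and -2.57), Lat2 (-3.54 and -2.67), Clec4d (-3.34 and -3.80), H1f0 (3.11 and 2.45), Mpp3 (2.25 and 2.25) and Cd72 (1.66 and 1.40). In the ATF4 list 23 of 46 members were lower and 0 higher in asynchronous cells, with a median of -0.68 against -0.76 in mitotic cells. In the cholesterol list 5 of 33 members were lower and 0 higher in asynchronous cells, with a median of -0.28 against -0.76 in mitotic cells.

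Whether a gene's S38D effect differed between the states was tested directly as an interaction, which called 42 genes (0.401%), 15 with a higher (0.143%) and 27 with a lower (0.258%) value in mitotic cells. In the cholesterol list 9 of 33 members were called lower in this test and 0 higher, and in the ATF4 list 3 of 46 were lower and 1 higher. Fdft1 had the most negative value among the named genes called in this test, at -1.49 (adjusted p = 0.00926), since its S38D effect was -1.54 in mitotic and -0.05 in asynchronous cells. Hmgcs1 (-1.17, adjusted p = 0.00638), with effects of -1.04 and 0.13, and Jdp2 (-1.39, adjusted p = 0.0127), with effects of -2.01 and -0.62, were called too. Dnmt1, the maintenance DNA methyltransferase, had 119 and 107 CPM in S38D mitotic cells against 195 and 189 CPM in WT mitotic cells (-0.77, adjusted p = 0.0279). In asynchronous cells Dnmt1 was higher in S38D (0.66), and the interaction was -1.43 (adjusted p = 0.036). The mitotic call of Dnmt1 was lost without any 1 of the 4 libraries compared (adjusted p of 0.119 to 0.23). These interaction calls are fragile: limma-voom called 0 higher and 1 lower, robust estimation off gave the same 0 and 1, and spike-in scaling and a fit of only the groups compared each called 0. DESeq2 called 34 higher and 92 lower, and 2003 genes had an unadjusted p under 0.05. Leaving out 1 library gave between 0 and 1176 higher and between 0 and 1581 lower, the low end without S38D mitotic replicate 1 and the high end without S38D asynchronous replicate 2.

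S38A mitotic cells allow the aspartate line to be set beside the alanine line. S38D and S38A share the WT mitotic libraries as controls, so their fold changes against WT are given side by side and not correlated. Against WT, 871 genes (8.31%) were called higher and 914 (8.72%) lower in S38A, and 420 and 376 without S38A mitotic replicate 2. For the ATF4 list the median was -0.76 in S38D (27 lower, 0 higher) and -0.47 in S38A (24 lower, 1 higher). For the cholesterol list it was -0.76 in S38D (22 lower, 0 higher) and -0.83 in S38A (23 lower, 1 higher). Tested directly, S38D mitotic against S38A mitotic cells gave 787 genes higher (7.51%) and 1064 lower (10.2%) in S38D. In that test 14 ATF4 list members were lower and 3 higher in S38D, with a median of -0.26, and 4 cholesterol list members were lower and 6 higher, with a median of -0.01. Without S38D mitotic replicate 2 the totals were 302 higher and 405 lower.

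Members of the ATF4 list differed in how the lines compared. Jdp2 had -2.01 against WT in S38D and -0.14 in S38A, and the difference between S38D and S38A was -1.87 (adjusted p = 6.9e-07). Chac1 (-2.32 in S38D and 0.21 in S38A against WT; -2.53 between the mutant lines), Ddit4 (-1.45 and 0.19; -1.64) and Pck2 (-1.71 and -0.27; -1.44) showed the same order. Trib3 was lower in both, with -3.08 in S38D and -1.55 in S38A, and differed between them by -1.53 (adjusted p = 3.0e-06). Atf4 (-0.87 and -0.59; -0.29, adjusted p = 0.125) and Ddit3 (-1.25 and -1.29; 0.04, adjusted p = 0.894) were not called between the mutant lines.

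Among other named genes, H1f0 was 2.28 higher on the log2 scale in S38D than in S38A mitotic cells (adjusted p = 0.000111), with 0.83 for S38A against WT. Crip1 went in opposite directions against WT, with -2.52 in S38D and 1.40 in S38A (adjusted p = 2.1e-05), a difference of -3.92 between the mutant lines (adjusted p = 6.9e-09). Tmem121 rose in S38D (1.42) and fell in S38A (-2.07, adjusted p = 2.6e-05), as did Tspan4 (-2.14 in S38A, adjusted p = 8.6e-06). Ptprcap (-7.27 and -6.14), Map1a (-4.17 and -3.87) and Clec4d (-3.34 and -3.27) were low in both mutant lines, and the differences between these had adjusted p of 0.511, 0.636 and 0.925. Rpl12 itself had -0.42 in S38D, which was not called, and -0.64 in S38A against WT (adjusted p = 0.0102). Between the mutant lines Rpl12 differed by 0.22 (adjusted p = 0.382).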

How the data were processed

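RNA was measured by QuantSeq 3′ mRNA sequencing of total RNA from cleared lysates with ERCC spike-in RNA, per the labels' protocols. The deposited files hold raw counts, whole reads per gene and spike-in for each library, as the authors deposited them. Per the submitters' processing notes, bcl2fastq 2.16.0.10, cutadapt 1.12 and STAR 2.5.3a were used with the mm10 build; the sources used here do not name the counting program or its strand setting, so overlapping and antisense genes may share reads. Symbols came from GENCODE M21, which matched 99.63% of identifiers. Counts of all 12 libraries were filtered (filterByExpr, minimum 10), scaled with TMM and fitted in edgeR 4.0.16 (R 4.3.3) by group without covariates. Quasi-likelihood tests were adjusted by Benjamini-Hochberg over 10477 genes within each comparison. SE of log2 fold changes derive from the F statistic. The steps were tested on simulated data, where small changes were mostly missed and the share of false calls exceeded the nominal rate. Alternatives were DESeq2 1.42.0, limma-voom (limma 3.58.1), other scalings and filters, a replicate block, each library left out, and, chosen after seeing the data, 2 libraries left out together.

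Replicate numbers did not pair the samples: of 15 correlations of replicate differences between groups, 3 were above 0.1 and 3 below -0.1, and these were large: WT mitotic with S38D asynchronous had 0.83 and with S38A mitotic 0.61, S38A mitotic with S38D asynchronous 0.65, and S38A asynchronous with these groups -0.45 to -0.41. The 36 gene lists and the genes named were chosen with earlier results of these data known. Named are Rpl12; the 14 called genes with the largest change per direction, at 10 CPM or more, separated libraries and a gene symbol that is not a clone name; up to 6 per direction among those also called in asynchronous cells, in the interaction or against S38A; and the 4 members of each list with the smallest adjusted p. Other list members were named after their values were seen, and a few genes that the rule selects are not reported here. Counting intervals leave out amplification and every source of error other than counting.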

Additional observations from a re-analysis of the deposited data

Results flagged for a closer look

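For 17 of the genes examined one by one, the S38D effect differed between mitotic and asynchronous cells by the interaction test at an adjusted p of 0.05, with the values below on the log2 scale (mitotic minus asynchronous). In the cholesterol list these were Fdft1 (-1.49), Acat2 (-1.42), Hmgcs1 (-1.17), Mvk (-1.12), Dhcr7 (-1.11) and Nsdhl (-0.84). In the ATF4 list they were Jdp2 (-1.39), Trib3 (-1.16) and Pck2 (-0.98). Dnmt1 (-1.43), Bcas1 (-1.28), Rnf157 (-1.23) and Tuba1a (-0.93) were also more negative in mitotic cells. Tmem128 (1.37), Tmem158 (0.97), Ly6d (0.94) and Hist1h1c (0.78) were more positive. All 17 calls were lost under spike-in scaling and with only the groups compared, where the test called 0 genes. Over all genes limma-voom called 0 higher and 1 lower. Some of the 17 genes were named because this test called them.

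For Dnmt1, Rnf157 and Tmem128 the effect had opposite signs in mitotic and asynchronous cells and was called in each. Rnf157 had -0.59 (adjusted p = 0.0353) in mitotic and 0.64 (adjusted p = 0.0124) in asynchronous cells. Tmem128 had 0.76 (adjusted p = 0.0249) and -0.60 (adjusted p = 0.0497). The mitotic calls of Rnf157 and Tmem128 were lost without any 1 of the 4 libraries compared, with adjusted p of 0.103 to 0.281 for Rnf157 and 0.0868 to 0.206 for Tmem128.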

How the results depend on the processing

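Among recomputed values of single genes, 1760 kept their direction and side of the threshold, 280 lost the call, 0 gained it and 2 changed sign. These totals pool values of the mitotic comparison with values of the interaction. In the mitotic comparison only Rpl12, Srebf2 and Insig1 of the recomputed genes were not called to begin with. Few values could therefore gain a call, and the 0 says little about genes that just missed the threshold. Srebf2, at 0.13, ranged from -0.23 to 0.60 with 1 library left out, at -0.23 without WT mitotic replicate 1 and -0.23 without that library and S38D asynchronous replicate 1 together. The 121 higher and 357 lower calls in S38D mitotic cells were 78 and 217 in DESeq2. Higher calls were 39 under spike-in scaling, 281 without a filter and 241 with both libraries left out. Single libraries left out gave 34 to 468 higher and 146 to 635 lower. Asynchronous cells (510 higher, 432 lower) had 953 higher without a filter, 58 higher and 1307 lower with spike-ins, 21 and 62 with only the groups compared, 263 lower in DESeq2, and 88 to 1825 higher and 147 to 1387 lower with 1 library left out. The interaction (15 higher, 27 lower) gave 34 and 92 in DESeq2, 0 and 1 in limma-voom and with robust estimation off, 0 and 0 with spike-ins or only the groups compared, 322 and 404 without a filter, 9 higher with a 10 CPM filter, and 0 to 1176 and 0 to 1581 with 1 library left out. S38D against S38A (787, 1064) gave 506 and 559 in DESeq2, 394 higher with spike-ins, 1534 higher with only the groups compared, 1497 and 1707 with both libraries left out, and 302 to 1272 and 405 to 1497 with 1 left out. S38A against WT (871, 914) gave 535 and 556 in DESeq2, 526 and 607 with spike-ins, and 420 to 1329 and 376 to 1342 with 1 left out. A fit with 1 library left out assumes that the lone library varies like the other groups. The causes were not tested.

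With the replicate number as a block the mitotic comparison had 147 higher and 376 lower and the interaction 43 and 52, and with the block and only the groups compared 75 and 211, and 0 and 0; the numbers do not pair the samples. With 2 libraries a group, most small changes may have been missed.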

Other observations

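Mitochondrially encoded mRNAs were all on the higher side in S38D mitotic cells, although 1 of 7 (mt-Nd6, log2 fold change 0.70, adjusted p = 0.0298) was called (14.3%, against 1.15% over all genes), and with any 1 of the 4 libraries left out 0 were. Their median was 0.41, and 0.36 under spike-in scaling, against 0.00 in asynchronous cells. The cytochrome b gene mt-Cytb averaged 5120 CPM in S38D mitotic and 3429 CPM in WT mitotic cells (0.58, SE 0.277, adjusted p = 0.332). Nuclear-encoded genes of the respiratory chain had a median of 0.03, with 1 of 75 lower and 0 higher.

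Called genes were spread over the genome, from 2.17% of the tested genes on chromosome 17 to 6.50% on chromosome 11 among the autosomes. The host genes of small nucleolar RNAs had 0 of 14 calls against WT in edgeR, 1 in DESeq2 and 0 in limma-voom, with a median of 0.26. At an unadjusted p under 0.05 in edgeR, 4 were higher. Against S38A mitotic cells 9 of the 14 were higher in S38D, as were 7.51% of all genes. In S38A mitotic against WT mitotic cells 7 of the 14 were lower and 0 higher (median -0.51), against 8.72% lower over all genes.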
